A study of Mus musculus with 2 samples.

Results

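The tissue kallikrein gene Klk1 and its Klk1b paralogs were followed in single-cell RNA counts of mouse small cell lung cancer, an aggressive lung tumour of neuroendocrine cells. The matrices held 28692 genes, of which 14 carry a symbol that is Klk1 or begins with Klk1b. Members were chosen by their summed unique molecular identifiers (UMIs, the tags that mark captured RNA molecules), with at least 50 over both libraries. This left 6 members, Klk1, Klk1b4, Klk1b22, Klk1b3, Klk1b16 and Klk1b5. Over all barcodes their sums ran from 15760 UMIs for Klk1 and 2101 for Klk1b4 to 60 for Klk1b5, the lowest inside the limit. The highest outside it was Klk1b24 with 18 UMIs. Klk1b21, Klk1b27, Klk1b11, Klk1b26 and Klk1b9 had 1 to 6 UMIs, all of them in the cisplatin library, and Klk1b1 and Klk1b8 had none.

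Each group was 1 library of sorted lung tumour cells from TKO mice of mixed strain. Mice of the cisplatin group received 5 mg per kg of this DNA-crosslinking drug every 4 days for 2 weeks, and mice of the vehicle group received saline on that schedule. All mice carried CGRPCreER/+, which expresses an inducible Cre from the CGRP (Calca) locus, with Rbf/f, P53f/f and other floxed alleles and the Rosa26mTmG reporter. Live GFP-positive cells were sorted, so the tumours and the sorted cells descend from cells that expressed CGRP. The library protocol also names etoposide for the treated tumours, and whether it was given cannot be told from the labels. The sources used here do not give the age of the mice or the number pooled for a library. As each group is a lone library, no value has a replicate check or a test, and every interval below is an exact 95% interval that covers counting error only.

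Tissue kallikrein is a secreted serine protease that cuts kininogen to release kinins, small peptides that widen vessels and act on kinin receptors. The mouse locus holds a row of closely related Klk1b paralogs that are best known from the submandibular salivary gland, where their products are made in granular duct cells. Most of these products are proteases, while that of mouse Klk1b4 lacks protease activity. In mouse, Klk1b22 encodes a binding protein of epidermal growth factor, and Klk1b16 encodes gamma-renin.

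The cisplatin library held 4254 barcodes and 28777462 UMIs (median 5925 per barcode), and the vehicle library 3726 barcodes and 32519922 UMIs (median 8168). Removing barcodes with under 500 genes or over 10% mitochondrial UMIs left 4218 and 3672 cells, and 23 barcode sequences occurred in both libraries. Shares of cells were taken after drawing each cell down to 3000 UMIs, which left out 361 cisplatin and 146 vehicle cells below that depth. Levels are CPM, the UMIs of a gene summed over the cells of a library and scaled to 1000000 UMIs in all. The neuroendocrine identity of the cells was checked on 14 markers, all measured, whose summed level was 9830 CPM in cisplatin and 7488 CPM in vehicle. Cells carrying UMIs of at least 3 of 6 markers of delta-like endocrine cells (Sst, Hhex, Isl1, Pnoc, Pyy and Hoxb8) made up 17.0% of cisplatin cells (717) and 0.463% of vehicle cells (17). They are called delta-marked here and are set apart where a result rests on them.

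All 14 genes lie on the plus strand of chromosome 7 (GRCm38, GENCODE M21), between 43950664 and 44229618. Klk1 (ENSMUSG00000063903) runs from 44225360 to 44229618 and is the last of the row, and Klk1b4 (ENSMUSG00000066513, 44207435 to 44211754) starts 17925 bases before it. Klk1b5 (44215945 to 44220703) lies between them. Klk1b3 (44198191 to 44202352), Klk1b16 (44136767 to 44141610) and Klk1b22 (44112673 to 44116922) lie further upstream. Every member has 5 exons and a coding sequence of 768 to 783 bases. The coding sequence of Klk1 is 95.2% identical to that of Klk1b5, 88.6% to Klk1b3, 88.5% to Klk1b4, 84.4% to Klk1b22 and 81.4% to Klk1b16.

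This likeness bears on how reads are assigned. Which end of a transcript was tagged and how long the reads were is not stated in the labels. Within the last 500 bases Klk1 and Klk1b5 share an exact run of 145 bases, and 13.6% of all 90-base windows in that stretch of Klk1, and as many of Klk1b5, also occur in another gene of the row. No 90-base window of Klk1b4, Klk1b22, Klk1b3 or Klk1b16 does, although 9.76% to 20.4% of their 50-base windows do. Klk1b5 values are therefore uncertain, and the others may hold some reads of a neighbour.

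Promoter sequences are shown for 4 members because Klk1b22 differed between the libraries in the opposite direction to the others. They come from RefSeq (GRCm38.p6), matched by symbol for 6 of 6 members, and each covers 130 bases before the annotated start and the 40 bases from it on, 5′ to 3′ on the plus strand. Capitals mark TTTAAA, a run like a TATA box, and CTCTGTCAG, a stretch that was picked after the sequences were seen because all 6 members hold it. TTTAAA and CTCTGTCAG do not overlap.
Klk1, chr7:44225230-44225399: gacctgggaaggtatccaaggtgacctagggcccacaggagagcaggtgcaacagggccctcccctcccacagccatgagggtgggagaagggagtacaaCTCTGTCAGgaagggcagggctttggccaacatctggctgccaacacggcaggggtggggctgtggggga
Klk1b4, chr7:44207303-44207472: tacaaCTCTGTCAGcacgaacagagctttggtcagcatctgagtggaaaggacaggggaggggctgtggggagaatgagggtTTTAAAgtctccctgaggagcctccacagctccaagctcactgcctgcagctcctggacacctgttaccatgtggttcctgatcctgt
Klk1b22, chr7:44112543-44112712: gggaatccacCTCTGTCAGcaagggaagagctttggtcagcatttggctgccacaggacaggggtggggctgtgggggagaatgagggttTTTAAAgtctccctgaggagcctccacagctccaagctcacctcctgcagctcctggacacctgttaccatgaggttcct
Klk1b3, chr7:44198061-44198230: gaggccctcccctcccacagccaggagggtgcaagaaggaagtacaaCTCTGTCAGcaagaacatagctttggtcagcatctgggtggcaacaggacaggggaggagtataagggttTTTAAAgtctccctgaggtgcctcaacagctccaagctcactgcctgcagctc
In windows of 300 bases (250 before and 50 after the start), TTTAAA occurred on either strand in 5 of 6 members and in 13.2% of 32851 RefSeq promoters. It began at position -48 in Klk1b4, -40 in Klk1b22, -39 in Klk1b16, -42 in Klk1b5 and -13 in Klk1b3, with the annotated first base counted as 0. CTCTGTCAG occurred in 6 of 6 members and in 0.524% of all promoters. It began at -30 in Klk1, against -125 in Klk1b4, -120 in Klk1b22 and -83 in Klk1b3, so the annotated start of Klk1 lies closer to it. The Klk1 window therefore reaches less far past CTCTGTCAG, on the side where the other members hold TTTAAA. Whether Klk1 holds TTTAAA beyond the end of its window was not tested. TATAAA occurred in 0 of 6 members (13.6% of all promoters), CAGCTG in Klk1b5 only (16.3%) and AGAACA in Klk1b3 only (18.97%). Over the 300 bases Klk1b22 was 80.8% identical to Klk1b4, 83.5% to Klk1b5, 80.2% to Klk1b16, 63.3% to Klk1b3 and 43.5% to Klk1. These windows are placed by the annotated starts, which lie at other distances from CTCTGTCAG in Klk1 and Klk1b3. The values for Klk1 and Klk1b3 therefore do not compare matched stretches and are not a measure of how far these promoters differ. Matches describe letters and do not show that a factor binds.

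Klk1 gave most UMIs of the row in both libraries and was higher in the cisplatin library. It was at 425.9 CPM in cisplatin (418.4 to 433.6; 12210 UMIs) and 107.8 CPM in vehicle (104.2 to 111.4; 3481 UMIs), a fold of 3.95 (3.81 to 4.11). On the log2 scale with 1 CPM added the ratio was 1.97, the rank 94 highest of 13446 genes with at least 50 UMIs. Klk1b4 was at 46.3 CPM in cisplatin (43.8 to 48.8; 1326 UMIs) and 23.8 CPM in vehicle (22.1 to 25.5; 768 UMIs), a log2 ratio of 0.93 and a fold of 1.95 (1.78 to 2.13). The intervals cover counting error only, so whether they overlap between the libraries is not read as a result. Those of Spint1, which differed by less than 1.5-fold, lay apart, with 144 to 153 CPM in cisplatin and 199 to 209 CPM in vehicle. The share of all measured genes whose intervals lie apart was not counted.

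Among the other paralogs, Klk1b3 was at 12.3 CPM in cisplatin and 7.03 CPM in vehicle, a log2 ratio of 0.73. Klk1b16 was at 9.56 CPM in cisplatin and 2.69 CPM in vehicle, a fold of 3.55 (2.78 to 4.57) that is near that of Klk1. Klk1b5 was at 1.33 CPM in cisplatin (38 UMIs) and 0.619 CPM in vehicle (20 UMIs), and its fold of 2.14 has a wide interval (1.22 to 3.88). Klk1b22 alone was lower, at 17.2 CPM in cisplatin (15.8 to 18.8; 494 UMIs) and 28.5 CPM in vehicle (26.7 to 30.4; 920 UMIs), a log2 ratio of -0.69. Its vehicle level was 1.65 times its cisplatin level, but under other scalings of the libraries it fell just short of the 1.5-fold limit (cisplatin over vehicle 0.667 by TMM and 0.679 by median-of-ratios), with the same direction.

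At a 1.5-fold limit 5 of 6 members were higher in cisplatin, where 8.09% of the 13446 measured genes were, and 1 was lower, where 21.7% were. The lower call is thus common among all genes in these libraries. The median log2 ratio was 0.73 over the 5 measured paralogs and -0.16 over all measured genes. Of all genes past 1.5-fold, 27.2% were higher in cisplatin, and this share was 42.6% under TMM and 46.3% under median-of-ratios, which raise the median of all genes to -0.04 and -0.02. The members and Klk1 in particular were named with these ratios known, so the ratios are a description.

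**Figure D1:**
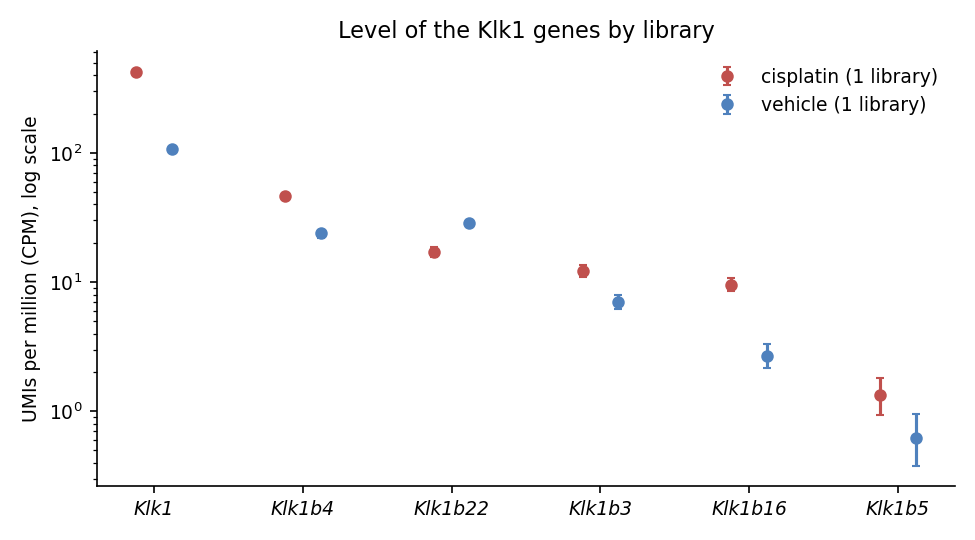
Level of each of the 6 members in CPM (log axis) in the cisplatin library (red, left of each pair) and the vehicle library (blue), 1 library each, with exact 95% counting intervals as bars. Klk1 stood at 425.9 and 107.8 CPM, and Klk1b22 is the only member with the cisplatin point below the vehicle point.

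The make-up of the row therefore differed between the libraries. Klk1 gave 83.0% of all UMIs of the 14 genes in cisplatin (82.4 to 83.6%) and 63.1% in vehicle (61.9 to 64.4%). Klk1b22 gave 3.36% in cisplatin and 16.7% in vehicle, and Klk1b4 gave 9.01% in cisplatin and 13.9% in vehicle. For every 100 Klk1 UMIs there were 4.05 of Klk1b22 in cisplatin and 26.4 in vehicle, while for Klk1b16 there were 2.24 in cisplatin and 2.499 in vehicle. In these library sums the proportion of Klk1b16 to Klk1 was close between the libraries, and that of Klk1b22 was not. Between groups of cells the proportion of Klk1b16 was not constant. In cisplatin Klk1b16 was at 1.60 CPM in delta-marked and 11.8 CPM in other cells, while Klk1 was at 358 and 443 CPM.

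The genes next door were read for comparison. Within 250 kb of the start of Klk1 or Klk1b4 lay 14 other genes of the matrices, of which 8 were measured. None of these was 1.5-fold higher in cisplatin and 1 was lower, Lrrc4b at 5.13 CPM in cisplatin and 10.5 CPM in vehicle, a log2 ratio of -0.91. With 8.09% of all measured genes higher and 21.7% lower, these counts do not set the neighbours apart from other genes. Under TMM and median-of-ratios 1 neighbour, 1700008O03Rik, passed the limit as higher, with folds of 1.51 and 1.54. The nearest measured neighbours, 1700028J19Rik and 2410002F23Rik, have their start sites 21.3 and 21.4 kb after that of Klk1. They were at 5.55 and 75.4 CPM in cisplatin and 6.90 and 88.3 CPM in vehicle. On the upstream side, no measured gene other than the members lies in this window.

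**Figure D2:**
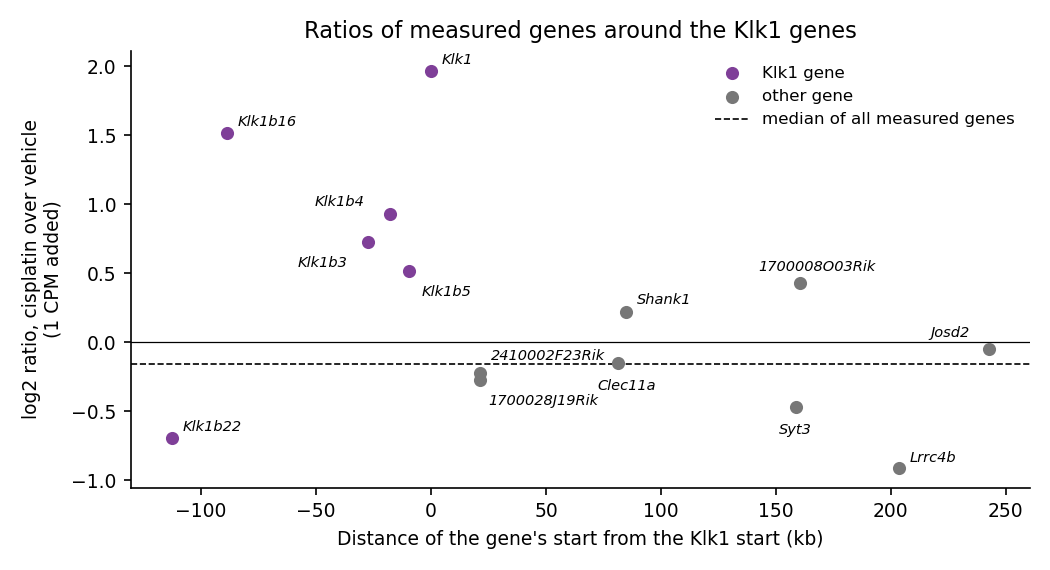
Log2 ratio of CPM, cisplatin over vehicle with 1 CPM added (vertical axis), of each measured gene against the distance of its start from that of Klk1 in kb (horizontal axis), with the 6 members in purple, other genes in grey and the median of all measured genes (-0.16) dashed. Klk1 at 1.97 and Klk1b16 at 1.52 stand highest, and Klk1b22 at -0.69 lies at the far left, among the low values.

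More cells carried Klk1 in cisplatin, and the cells that carried it held more of it. After thinning, 35.6% of cisplatin cells (34.1 to 37.1%; 1373 of 3857) and 13.2% of vehicle cells (12.1 to 14.3%; 464 of 3526) had a Klk1 UMI. Unthinned, the shares were 51.2% and 25.5%. Klk1b4 was found in 9.62% of thinned cisplatin cells and 5.93% of thinned vehicle cells (unthinned 16.3% and 12.2%). Klk1b22 was found in 5.73% of thinned cisplatin cells and 8.22% of thinned vehicle cells (unthinned 9.84% and 18.7%). Klk1b3 had a UMI in 2.67% of thinned cisplatin and 1.82% of thinned vehicle cells, and the intervals of these shares overlap. Klk1b16 had a UMI in 2.80% of thinned cisplatin and 0.737% of thinned vehicle cells. Free RNA adds UMIs to cells that do not express a gene, and no clean set of other cells was at hand to measure it. Barcodes with at least 3 immune, endothelial or fibroblast markers numbered 11 in cisplatin and 34 in vehicle, and held a median of 11 of the 14 neuroendocrine markers. In these, Klk1 had a UMI in 7 of 11 (median depth 11171 UMIs) and 8 of 34 (median depth 9689.5 UMIs), so they gave no background.

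A small number of cells held a large part of the Klk1 RNA. The highest cell had 307 Klk1 UMIs in cisplatin and 241 in vehicle, while the median over cells with any was 2 in cisplatin and 1 in vehicle. The 1% of cells with most Klk1 (42 and 37 cells) held 40.2% of its UMIs in cisplatin and 47.4% in vehicle. The tenth of cells with most held 76.2% in cisplatin and 83.7% in vehicle. At least 20 Klk1 UMIs were found in 100 cisplatin cells (2.37%) and 26 vehicle cells (0.708%). In thinned cells the variance of Klk1 was 23.5 times its mean in cisplatin and 12.2 times in vehicle, ranks 12 of 10661 and 18 of 10840 genes. Klk1b22 had no such high cells. Its highest cell had 4 UMIs in cisplatin and 7 in vehicle. Its variance was 1.18 and 1.11 times its mean, ranks 1178 of 10661 and 1635 of 10840 genes. Its mean in thinned cells was also lower than that of Klk1, at 0.0635 against 1.24 UMIs in cisplatin and 0.0899 against 0.330 in vehicle. Klk1b4 lay between, with up to 31 UMIs in a cisplatin cell and 21 in a vehicle cell and ratios of 2.35 and 1.62.

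The few high cells did not make up the whole difference between the libraries. With each cell's Klk1 capped at 5 UMIs, a step added after the data were seen, the log2 ratio of Klk1 was 1.66 in place of 1.97. In vehicle, 1 barcode with 234 Klk1 UMIs also carried markers of another cell type, and without the barcodes so marked the log2 ratio was 2.07.

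**Figure D3:**
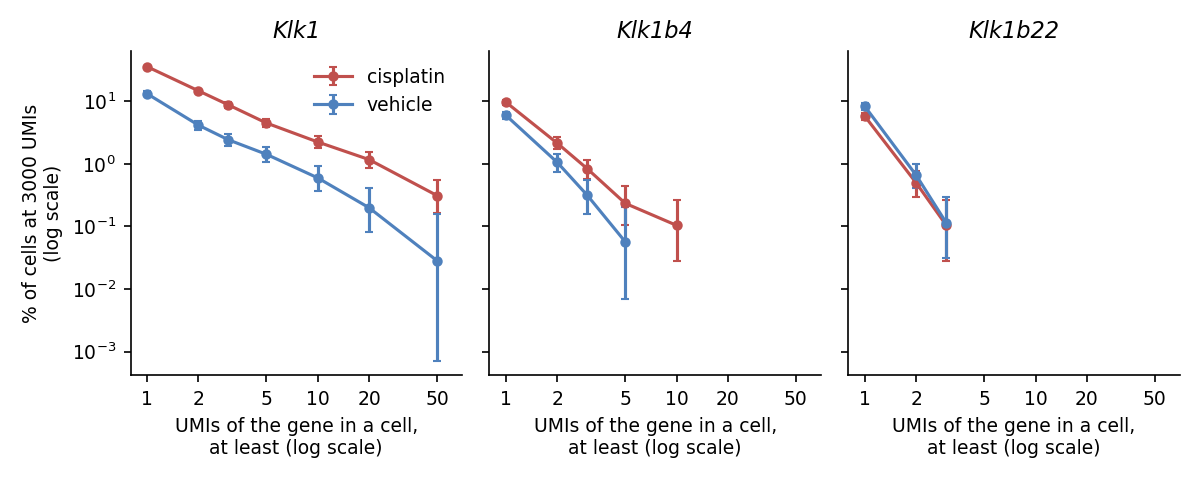
Share of thinned cells in percent (vertical log axis) that held at least the number of UMIs on the horizontal log axis, for Klk1, Klk1b4 and Klk1b22, in cisplatin (red) and vehicle (blue), with exact 95% binomial intervals. For Klk1 12 cisplatin cells and 1 vehicle cell reached 50 UMIs at 3000 UMIs per cell, whereas no cell of either library reached 5 UMIs of Klk1b22.

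The members were found together in cells. Of thinned cells with a Klk1b4 UMI, 58.8% also had Klk1 in cisplatin (218 of 371; 53.6 to 63.8%), against 33.1% of the cells without Klk1b4. In vehicle the shares were 39.7% (83 of 209; 33.0 to 46.7%) and 11.5%. Klk1b3 showed the same, with Klk1 in 64.1% of cells that had it and 34.8% of those that did not in cisplatin, and in 46.9% and 12.5% in vehicle. For Klk1b22 the gap was smaller, with Klk1 in 49.8% of the cells that had it and 34.7% of those that did not in cisplatin, and in 22.4% and 12.3% in vehicle. Klk1b3 was found in 25.0% of cisplatin cells with Klk1b16 (27 of 108) and 2.03% of those without, and in 7.69% of vehicle cells with Klk1b16 (2 of 26; 0.946 to 25.1%) and 1.77% of those without. At least 2 members were found in 10.2% of thinned cisplatin cells and 4.96% of thinned vehicle cells, and no member in 56.3% and 76.1%. How far the shared sequence of the paralogs adds to this overlap was not tested.

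Paralog levels were higher in cells with more Klk1 UMIs. Klk1b4 was at 21.7 CPM in cisplatin cells with no Klk1 UMI and 362 CPM in those with at least 20, and at 10.9 and 432 CPM in the same classes of vehicle cells. Klk1b3 was at 4.22 and 159 CPM in these classes in cisplatin, and at 3.10 and 157 CPM in vehicle. Klk1b22 had the smallest span, at 12.3 and 56.5 CPM in cisplatin and 22.8 and 123 CPM in vehicle. For every 100 Klk1 UMIs, Klk1b4 gave 17.2 in cisplatin cells with 1 Klk1 UMI and 4.70 in those with at least 20. The same Klk1 UMIs set the classes and divide this ratio, so the grouping itself lowers it. No change of make-up is read from it. In cells with 1 Klk1 UMI, Klk1b4 was at 25.2 CPM in cisplatin and 24.2 CPM in vehicle, and with 2 to 4 UMIs at 53.1 and 49.2 CPM. With 5 to 19 UMIs it was at 91.2 CPM in cisplatin and 151.5 CPM in vehicle. The classes use unthinned UMIs and do not match the libraries for depth. Cells with 1 Klk1 UMI had a median of 5949 UMIs in cisplatin and 8889 in vehicle. Cells with more Klk1 were also deeper, with a median of 5217.5 UMIs in cisplatin cells without Klk1 and 8478 in those with at least 20.

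**Figure D4:**
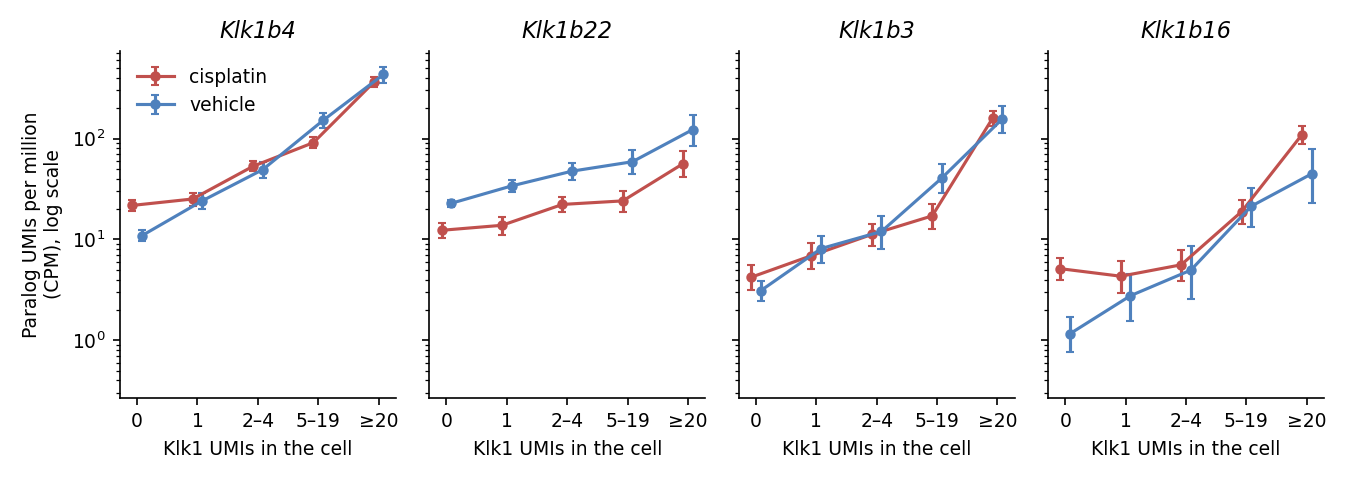
Level of Klk1b4, Klk1b22, Klk1b3 and Klk1b16 (CPM, log axis) in cells grouped by their own Klk1 UMIs, in cisplatin (red) and vehicle (blue), with exact 95% counting intervals. Levels were highest in cells with at least 20 Klk1 UMIs, up to 362 CPM of Klk1b4 in cisplatin, and Klk1b22 is lower in cisplatin in each class of cells.

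Klk1 was lower in cells with mitotic transcripts, in both libraries. A thinned cell was called mitotic with at least 2 UMIs over 10 mitotic genes and S phase with at least 2 over 12 S phase genes and no mitotic call. Mitotic cells were 44.4% of cisplatin and 40.7% of vehicle cells, S phase cells 39.5% and 43.1%, and cells with neither call 16.2% in each. In cisplatin Klk1 was at 298 CPM in mitotic cells and 554 CPM in the other cells, a log2 ratio of -0.89 (-0.95 to -0.84). In vehicle it was at 67.1 CPM in mitotic cells and 144 CPM in the others, a log2 ratio of -1.09 and a fold of 0.466 (0.433 to 0.502). The shares of cells with a Klk1 UMI ran the same way, at 31.3% of mitotic and 39.0% of other cells in cisplatin and 9.41% and 15.7% in vehicle.

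Klk1b4 was likewise lower in mitotic cells, at 38.3 CPM against 54.2 CPM in the other cells of cisplatin (log2 ratio -0.49) and 15.7 CPM against 30.6 CPM in vehicle (-0.92). Klk1b22 was at 13.3 CPM in mitotic and 21.5 CPM in other cells of cisplatin, and at 20.7 and 34.9 CPM in vehicle. In cisplatin Klk1b3 was at 11.5 CPM in mitotic and 12.7 CPM in other cells, a fold of 0.901 whose interval includes 1 (0.723 to 1.12), and in vehicle it was at 3.48 and 10.3 CPM (fold 0.339). Whether the libraries differ in this was not tested. At a 1.5-fold limit Klk1, Klk1b22 and Klk1b16 of the 5 members with at least 50 UMIs in these cells were lower in mitotic cells of cisplatin, where 6.03% of 12171 genes were. In vehicle all 5 were lower, where 4.43% of 12492 genes were. The median over all genes was 0.03 in cisplatin and 0.02 in vehicle. In vehicle the size depended on the definition, since the log2 ratio of Klk1 was -0.22 when 1 mitotic UMI was enough and -2.35 when 4 were needed. Mitotic cells were also deeper (median 7667 UMIs against 5488.5 in the other cells of cisplatin, and 9814 against 7921 in vehicle), and the part of depth was not tested.

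The cisplatin library was higher in Klk1 within each state. The fold was 4.44 in mitotic cells (4.14 to 4.76), 3.13 in S phase cells (2.97 to 3.30) and 7.27 in cells with neither call (6.55 to 8.10). Among cells with neither call, those with at least 20 Klk1 UMIs held 69.1% of its UMIs in cisplatin and 26.2% in vehicle. With each cell capped at 5 UMIs, Klk1 was at 134 CPM in cisplatin and 34.2 CPM in vehicle for mitotic cells. Capped levels were 214 and 73.7 CPM for S phase cells and 213 and 66.6 CPM for cells with neither call. No order of the states is read from the folds. Klk1b4 was 2.43, 1.76 and 1.84 times as high in these states. Klk1b3 was 3.30 times as high in mitotic cells (2.40 to 4.60), 1.00 times in S phase cells (0.772 to 1.30) and 2.13 times in cells with neither call (1.39 to 3.31). Klk1b22 was lower in mitotic and S phase cells of cisplatin, at 0.641 and 0.523 of the vehicle level, and in cells with neither call its interval included 1 (0.672 to 1.12).

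Delta-marked cells of the cisplatin library had Klk1 and Klk1b22 but little of the other paralogs. Klk1b4 was at 8.82 CPM in delta-marked cells (55 UMIs in 689 cells) and 56.9 CPM in the other cisplatin cells, 6.45 times the level in delta-marked cells. Klk1b3 was at 1.77 CPM in delta-marked and 15.1 CPM in other cells, and Klk1b16 at 1.60 and 11.8 CPM. Klk1b22 did not separate them, at 15.7 CPM in delta-marked and 17.7 CPM in other cells (fold 0.886; 0.703 to 1.11). A fold of at least 1.5 lower in delta-marked cells was found for 19% of 12171 genes, with a median log2 ratio of -0.10 over all. The 2.32% of delta-marked cells with a Klk1b4 UMI (16 of 689; median depth 8308 UMIs), against 11.2% of the others (median depth 5970 UMIs), include any that free RNA gave.

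Klk1 itself was spread in another way in delta-marked cells. After thinning 58.5% of them had a Klk1 UMI, against 30.6% of the other cisplatin cells, but its level was 358 CPM in delta-marked and 443 CPM in other cells. With each cell capped at 5 UMIs the level was 275 CPM in delta-marked and 144 CPM in other cells. The share and the capped level thus ran opposite to the full level, and no order is read from them. Only 5 delta-marked cells (0.726%) held 20 Klk1 UMIs or more, against 88 of the others (2.78%), and these held 7.72% and 65.6% of the Klk1 UMIs of their groups. Without delta-marked cells Klk1 was at 443 CPM in cisplatin and 108 CPM in vehicle, a fold of 4.10, and Klk1b4 had a fold of 2.39 in place of 1.95. The vehicle library had 17 delta-marked thinned cells, with 22 UMIs of Klk1, 6 of Klk1b22 and 0 of Klk1b4, Klk1b3 and Klk1b16, too few to compare.

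**Figure D5:**
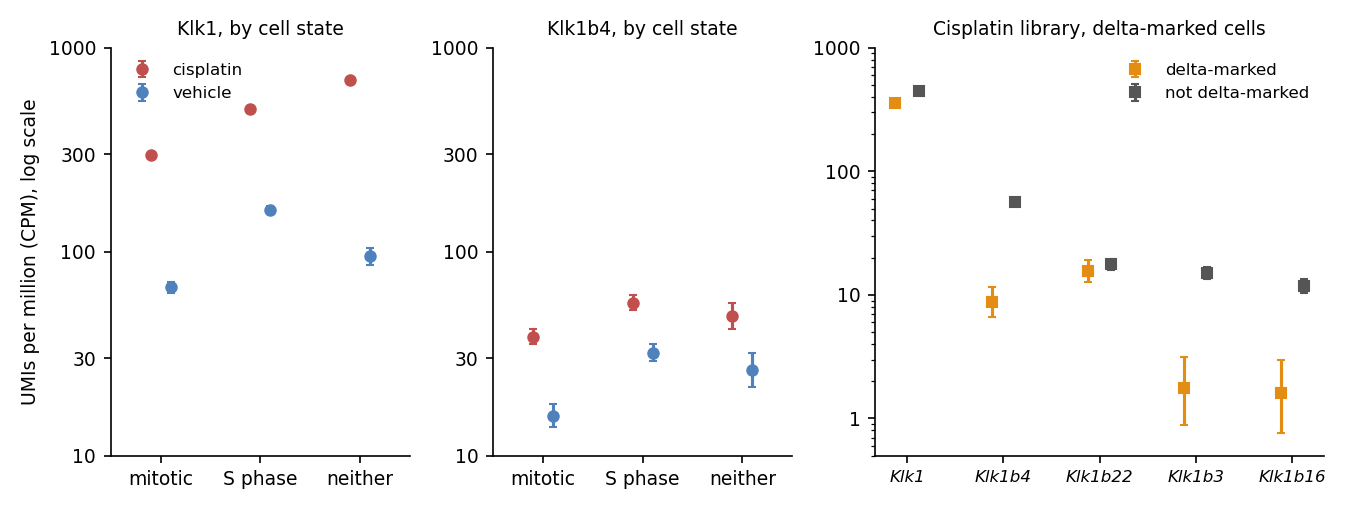
Level in CPM (log axes) with exact 95% counting intervals: Klk1 (left) and Klk1b4 (middle) in mitotic, S phase and remaining cells of cisplatin (red) and vehicle (blue), and 5 members in delta-marked (orange) and other (grey) cells of the cisplatin library (right). Mitotic cells are lowest in each library for both genes, and Klk1b4, Klk1b3 and Klk1b16 drop in delta-marked cells while Klk1b22 does not.

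Other genes followed the members only weakly over cells. Among genes found in at least 5% of thinned cells, the highest Pearson r with Klk1 was 0.194 for Ceacam10, an adhesion molecule, in cisplatin (3857 cells) and 0.191 for Resp18, a neuroendocrine secretory granule protein, in vehicle (3526 cells). In the other library the r with Klk1 was 0.0197 for Ceacam10 and 0.166 for Resp18. Ceacam10 was at 411 CPM in cisplatin and 6.655 CPM in vehicle. Resp18 was also the highest for Klk1b4 in both libraries (0.188 and 0.167). Pcsk1, Pcsk2 and Scg5, which serve prohormone processing, were among the 8 highest for Klk1 in cisplatin (0.165 to 0.193), and in vehicle their r with Klk1 was 0.0854, -0.0168 and 0.0673. The neighbour 2410002F23Rik was among the 8 highest for Klk1b16 in cisplatin (0.106) and for Klk1b3 in vehicle (0.084). Between members r was 0.265 in cisplatin and 0.340 in vehicle for Klk1 with Klk1b4, and 0.266 and 0.227 for Klk1 with Klk1b3. It was 0.314 in cisplatin and 0.0585 in vehicle for Klk1b3 with Klk1b16, and 0.115 and 0.110 for Klk1 with Klk1b22. Klk1b22 had its other values of r at or below 0.0643. The cells behind each r come from 1 library and share its free RNA, and these weak values are a description.

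Other kallikrein genes and the genes for the substrate and receptors of the kinin system had few or no UMIs. Some enzymes that degrade kinins were measured. Of 13 kallikrein genes outside the row (Klk4 to Klk15 and the plasma kallikrein gene Klkb1), none reached 50 UMIs and 9 had no UMI. Of 10 genes of the kinin pathway, 3 were measured, 0 higher and 1 lower, where 8.09% and 21.7% of all measured genes were. The kininogen genes Kng1 and Kng2, which encode the substrate of tissue kallikrein, had 0 UMIs in both libraries, and the kinin receptor genes Bdkrb1 and Bdkrb2 had 1 and 1 in cisplatin and 1 and 2 in vehicle. Cpn1, the catalytic subunit of a carboxypeptidase that inactivates kinins, had 43 UMIs in cisplatin and 159 in vehicle, while Ace, another kinin-degrading enzyme, was at 8.86 CPM in cisplatin and 9.75 CPM in vehicle. Ece1, a metalloprotease that can also cut bradykinin, was at 48.8 CPM in cisplatin and 63.1 CPM in vehicle, within the 1.5-fold limit. Mme and Cpm of the same list stayed below 50 UMIs, with 6 and 8 UMIs in cisplatin and 4 and 17 in vehicle.

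Some inhibitors of serine proteases and the epidermal growth factor receptor gene were measured. Of 8 inhibitors of serine proteases 4 were measured, 1 higher and 1 lower, beside the 8.09% and 21.7% of all measured genes. Spint2, a membrane-bound inhibitor, was at 1487 CPM in cisplatin and 1035 CPM in vehicle, a fold of 1.44 that was 1.58 under TMM and 1.61 under median-of-ratios, and so past the limit there. Spint1, a related inhibitor, was at 148.5 CPM in cisplatin and 203.9 CPM in vehicle. Serpina3n, at 1.71 CPM in cisplatin and 0.310 CPM in vehicle, was higher, and Spink5, at 0.174 and 1.58 CPM, was lower. Egfr, which encodes the receptor of epidermal growth factor, was at 25.8 CPM in cisplatin and 42.0 CPM in vehicle, and under TMM and median-of-ratios its folds of 0.677 and 0.690 were within the 1.5-fold limit. Egf, which encodes that growth factor, was at 1.12 CPM in cisplatin and 1.42 CPM in vehicle.

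Markers of glands and airway cells were read beside these results. Of 11 gland acinar or duct markers in the matrices 2 were measured, Amy1 at 13.1 CPM in cisplatin and 2.23 CPM in vehicle and Dcpp1 at 7.05 and 6.87 CPM, and 6 had no UMI, among them Prss1, Lpo, Pip and Bpifa2. The 6 markers of club or secretory cells summed to 2063 CPM in cisplatin and 841 CPM in vehicle, of which Scgb1a1 gave 2003 and 728 CPM. Of the 5 measured, 2 were higher in cisplatin (Scgb1a1 and Cyp2f2) and 3 were lower, among them Scgb3a2 at 42.0 CPM in cisplatin and 90.2 CPM in vehicle. Of all measured genes, 8.09% were higher and 21.7% were lower. The 14 immune markers summed to 73.4 CPM in cisplatin and 100.5 CPM in vehicle, with Nkg7 at 0 in cisplatin. Of the 10 measured, 3 were higher in cisplatin and 5 were lower, beside the same shares of all measured genes. S100a8 was at 0.872 CPM in cisplatin and 45.4 CPM in vehicle, more than the gap between the sums, and Cd74 was at 44.1 CPM in cisplatin and 17.6 CPM in vehicle. Of 4 measured alveolar type 2 markers 2 were higher in cisplatin and 1 was lower, with Sftpc at 163 CPM in cisplatin and 24.6 CPM in vehicle. Of 5 measured ciliated cell markers 2 were higher and 0 lower, with Tmem212 at 22.1 CPM in cisplatin and 1.46 CPM in vehicle. The part of these cells or of their free RNA in the Klk1 levels was not tested.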

How the data were processed

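Single-cell RNA was counted with the 10x Genomics platform in 2 libraries. The authors deposited whole-number UMI counts for every gene and barcode, not normalized; the submitters' processing notes name Cell Ranger 2.0.2 and mm10. Cells with at least 500 genes and at most 10% mitochondrial UMIs were kept; no doublet caller was run and no barcode was removed as a doublet. UMIs were summed per library and scaled to CPM, and log2 ratios had 1 CPM added. Genes with at least 50 UMIs over both libraries are called measured. Intervals are exact (Poisson, Clopper-Pearson, conditional binomial), at 95%. Thinning used seed 1. TMM (edgeR 4.0.16) and median-of-ratios factors (DESeq2 1.42.0, R 4.3.3) served only as other scalings of the sums. Python 3.11.15 with numpy 2.4.6, scipy 1.17.1 and Biopython 1.88 (global alignment) did the rest. Fold calls and ratio intervals of library sums were tested on simulated Poisson counts, and thinning was checked on the cisplatin cells. The other steps were not tested in this way, and counts that cluster in few cells were not simulated. Named genes are the members, the lists, the neighbours within 250 kb and the 8 genes with the highest r per member. The members, lists and markers were chosen with earlier results of these data known. Part of the list of growth factor genes is not reported here.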

Additional observations from a re-analysis of the deposited data

Results flagged for a closer look

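Klk1 in S phase cells against cells with neither a mitotic nor an S phase call went in opposite directions in the libraries, a difference that was not tested. In cisplatin Klk1 was at 502 CPM in S phase cells and 691 CPM in cells with neither call, a log2 ratio of -0.46 (-0.53 to -0.39). In vehicle it was at 160.5 CPM in S phase cells and 95.1 CPM in cells with neither call, a log2 ratio of 0.75 (0.60 to 0.91). The shares of thinned cells with a Klk1 UMI hardly differed between these states, at 39.4% and 38.1% in cisplatin and 15.7% and 15.8% in vehicle. With each cell's Klk1 capped at 5 UMIs the log2 ratio was 0.00 in cisplatin and 0.14 in vehicle, and with cells thinned to 5000 UMIs it was -0.43 in cisplatin and -1.09 in vehicle. At least 20 Klk1 UMIs were held by 38 of 1522 S phase cells and 24 of 624 cells with neither call in cisplatin, and by 18 of 1521 and 4 of 570 in vehicle.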

How the results depend on the processing

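No alternative turned the direction of the log2 ratio of any of the 6 members. The log2 ratio of Klk1 (1.97) was 2.11 under TMM, 2.14 under median-of-ratios, 1.89 with 10 CPM added, 2.07 without barcodes with markers of other cell types and 1.66 with a cap of 5 UMIs per cell. That of Klk1b4 (0.93) was 1.09 under median-of-ratios, 0.74 with 10 CPM added, 1.21 without delta-marked barcodes and 0.83 with the cap. Shares of cells follow depth. Klk1 was found in 28.1%, 46.8% and 51.2% of cisplatin cells at 2000 UMIs, at 5000 UMIs and unthinned, and in 10.6%, 17.1% and 25.5% of vehicle cells, and at least 2 UMIs in 14.7% and 4.14%. Klk1b4 was found in 6.66%, 13.5% and 16.3% of cisplatin cells at these depths and in 3.70%, 8.44% and 12.2% of vehicle cells, and at least 2 UMIs in 2.13% and 1.05%. Klk1 among cells with Klk1b4 was at 66.8% at 5000 UMIs and 71.4% unthinned in cisplatin, and at 52.6% unthinned in vehicle, in each case above the cells without it.

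The mitotic log2 ratio of Klk1 in cisplatin (-0.89) was -0.66 with 1 mitotic UMI, -1.21 over cells with neither call, -0.67 with the cap and -0.95 without delta-marked barcodes. In vehicle (-1.09) it was -0.22 with 1 and -2.35 with 4 mitotic UMIs, -0.67 at 5000 UMIs and -0.50 over cells with neither call. That of Klk1b4 was -0.33 over cells with neither call in cisplatin (main -0.49), and in vehicle (-0.92) it was -0.35 with 1 and -1.46 with 4 mitotic UMIs, -0.65 at 5000 UMIs and -0.71 over cells with neither call. For Klk1 in S phase against cells with neither call, the cap gave 0.00 in cisplatin and 5000 UMIs gave -1.09 in vehicle. Genes 1.5-fold higher in cisplatin numbered 1088, and 3138 with a floor of 1 UMI, 691 with a floor of 200 and 516 at 2-fold. Genes lower numbered 2912, and 1876 under median-of-ratios, 5445 with a floor of 1 UMI and 959 at 2-fold. The cause of these shifts was not tested. The cap, leaving out delta-marked barcodes in the mitotic ratios, the alternatives for the other 4 members and those for S phase were added after the data were seen. Leaving out a library was not possible, since it empties a group. No paired analysis was possible because each group has 1 library.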
